A study of Mus musculus with 21 samples.

Results

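The genes described here encode the machinery of DNA replication and of mitosis, measured in mouse lung after 1 exposure to a fungal antigen extract. Of 40 listed genes, 38 were measured among 12393 genes in all: 19 of 20 replication genes, 15 of 16 mitosis genes and 4 of 4 cyclins of the G1 phase. Chaf1a and Ccnb1 were not analysed here. A member was taken from the gene symbol in the platform annotation, and the brightest of its probe sets stood for the gene (38 of 76 probe sets, with 22 members holding more than 1).

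The arrays came from female BALB/c mice of 8 weeks that were dosed once by intratracheal aspiration. The mice received 20 µg of MACA, a crude antigen preparation of the fungus Metarhizium anisopliae, 20 µg of bovine serum albumin (BSA) or the carrier alone, Hank's balanced salt solution (HBSS), each in 50 µl, and the left lung was taken at 3 h or 12 h. There were 4 MACA, 3 BSA and 3 HBSS arrays at 3 h and 3 MACA, 4 BSA and 4 HBSS arrays at 12 h, 21 in all, which the labels call biological replicates. MACA is a mixture of fungal products, the whole lung holds every cell type of the organ, and in such bulk RNA fewer cells of a type and less RNA per cell cannot be told apart.

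Cells commit to division in G1, when Cdc6 and Cdt1 load the Mcm2 to Mcm7 helicase on DNA. Entry into S phase activates the helicase with the GINS complex, primase and polymerase alpha lay down primers, and the Pcna clamp, Fen1 and Lig1 finish the lagging strand. Genes of this phase are classical targets of E2F factors. The genes of chromosome segregation, such as Plk1, the aurora kinases and Cdc20, follow in G2 and M phase, and many carry the CHR promoter element. Most cells of an adult lung are outside the cycle.

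All 15 lung epithelial and endothelial marker genes that were measured stood above the noise level on at least 1 array of every group, and their summed intensity ranged from 80956 to 97349 over the 21 arrays. The deposited intensities had array medians from 93.0 to 287 and were quantile normalized between arrays before log2(intensity + 16) was taken. The noise level was an intensity of 40.9, which 95% of the negative values did not exceed in size. Without scaling, the median log2 difference of all genes was -0.57 for MACA against HBSS at 12 h and 0.72 for HBSS at 12 h against 3 h, so each difference below is relative to the other genes on the arrays. A spiked hybridization control split the arrays into a set of 13 with a high ratio between its probe sets (1.62 to 1.91) and a set of 8 with a low ratio (0.939 to 1.22). The low set held 2 MACA arrays at 3 h, 2 BSA arrays at 12 h and all 4 HBSS arrays at 12 h, so at 12 h MACA and HBSS cannot be compared within a set.

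Some genes of the replication machinery, most of the Mcm helicase among them, were higher in MACA lungs at 12 h. Against HBSS at 12 h, 9 of 19 replication genes were higher and none was lower at an adjusted p under 0.05 (limma, Benjamini-Hochberg over all genes). Of all genes, 10.2% were higher and 10.1% were lower in that comparison. Of 15 mitosis genes, 0 were higher by limma and 1, Cenpa, was lower. At an unadjusted p under 0.05, 0 mitosis genes were higher and 2 lower, where 1947 of all genes were higher and 2099 lower. The median log2 difference was 0.37 over the replication genes and 0.02 over the mitosis genes, against a median of all genes that the scaling holds near 0, and the contrast between the groups itself was not tested. The 9 were Mcm5, Mcm6, Mcm7, Mcm2, Cdt1, Gins1, Pcna, Lig1 and Prim1, and of these Mcm2, Mcm7, Cdt1, Pcna, Lig1 and Prim1 had differences below 0 without scaling between arrays, although all 9 stayed above that fit's median of all genes.

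**Figure D1:**
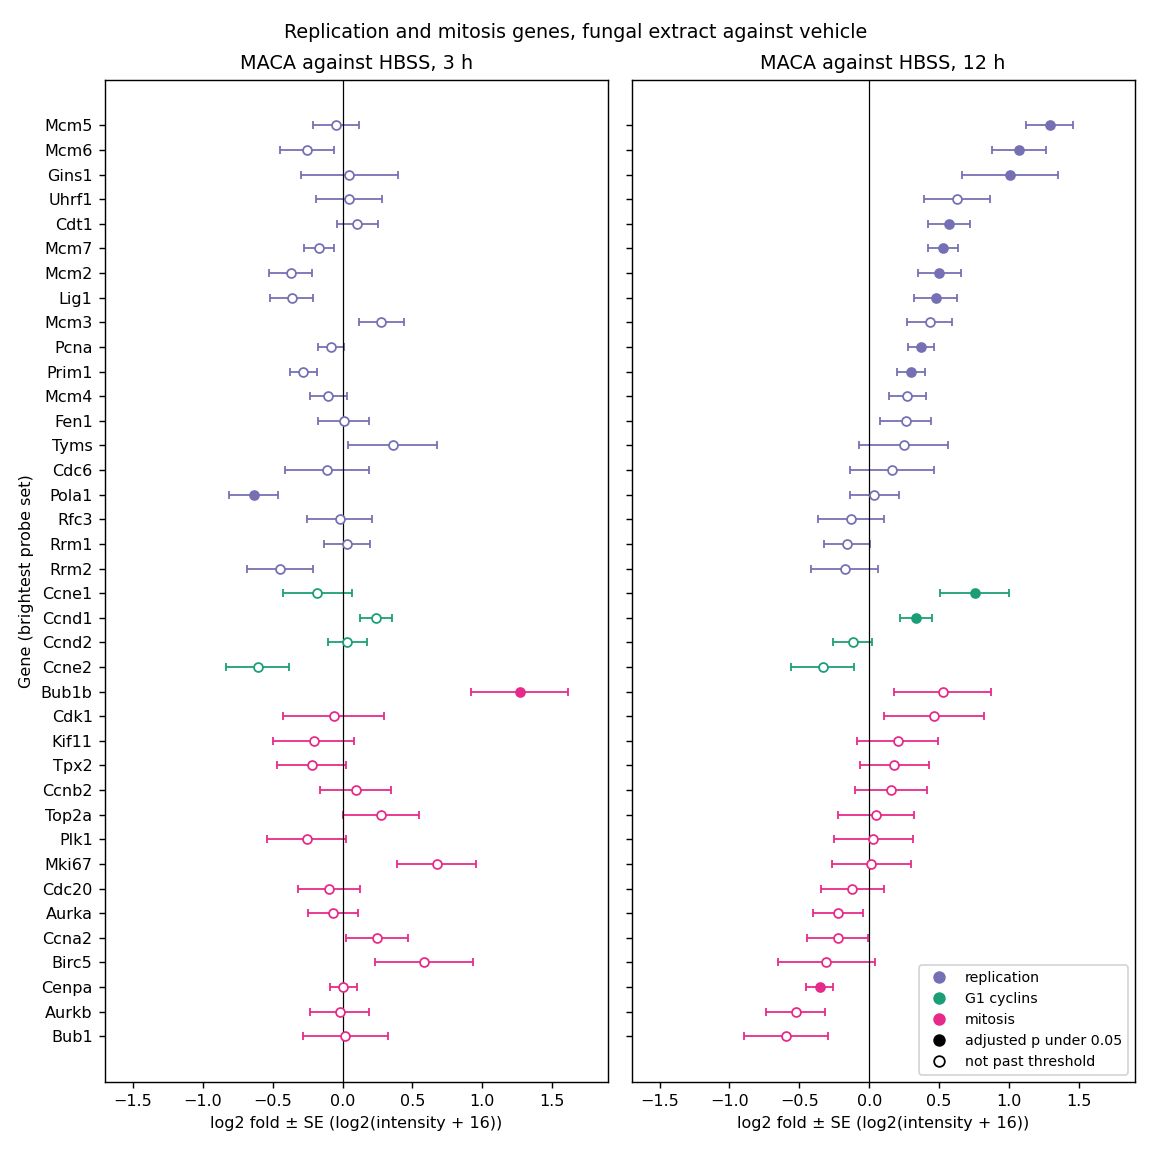
Log2 difference between MACA and HBSS at 3 h (left) and 12 h (right) for the 38 measured members, with bars of 1 standard error from the limma fit and filled points past an adjusted p of 0.05. At 3 h the points lie on both sides of 0, and at 12 h the replication genes lie mostly to the right while the mitosis genes lie around 0. Values are after quantile normalization, without which 6 of the 9 filled replication points at 12 h turn negative. Bub1b and Ccne1 were under the noise level on all 21 arrays.

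In 8 of the 19 replication genes every MACA array lay above every HBSS array at 12 h, as in 15% of all genes. Mcm5, a helicase subunit, showed the largest difference among the replication genes. Its intensity was 252, 359 and 280.2 in the MACA arrays at 12 h, 87.7, 100.2, 138 and 123 in HBSS and 152, 98.4, 149.5 and 160.3 in BSA. Every MACA array stood above every control array of that time. The MACA mean was 2.45-fold the HBSS mean (log2 difference 1.29 ± 0.17 SE, adjusted p = 0.000123) and 2.01-fold the BSA mean (1.01 ± 0.17, adjusted p = 0.00178). The same probe set read at 3 h 92.9, 126, 106 and 105 in MACA, 101, 118 and 115 in HBSS and 107, 75.7 and 85.0 in BSA, and the 3 groups overlapped. The gene lies at chr8:75109468-75128439 of GRCm38.p6.

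Mcm6, another subunit of the ring, was also higher. At 12 h it read 534, 868 and 609.8 in MACA, 232, 273, 372 and 358 in HBSS and 359, 297, 309 and 385 in BSA. No control array reached the lowest MACA array. The difference was 1.07 ± 0.19 (log2 ± SE) against HBSS (adjusted p = 0.00126) and 0.94 ± 0.19 against BSA (adjusted p = 0.00717). Without MACA replicate 2, the array with the highest value, the difference from BSA had an adjusted p of 0.0564. The 3 h values were 191, 265, 166 and 190.5 in MACA, 202, 269 and 261 in HBSS and 214, 260.5 and 184 in BSA, with overlap throughout.

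Mcm7 read 973, 1245 and 881 in MACA at 12 h, 683, 632, 809 and 707 in HBSS and 812, 836, 822 and 972 in BSA. MACA lay above HBSS without overlap (0.53 ± 0.11, adjusted p = 0.00302) but overlapped BSA (0.25 ± 0.11, adjusted p = 0.166). The 4 BSA arrays also lay above the 4 HBSS arrays at 12 h, with a difference of 0.28 ± 0.10 that missed the threshold (adjusted p = 0.167). At 3 h Mcm7 read 678, 693, 588 and 604 in MACA, 738, 679 and 750.1 in HBSS and 684, 727 and 779.9 in BSA. The differences from HBSS of Mcm5, Mcm6 and Mcm7 kept an adjusted p under 0.05 in each of the 21 fits that left out 1 array.

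Mcm2 read 358, 528 and 425 in MACA at 12 h, 271, 265, 396 and 285 in HBSS and 248, 277, 303 and 389 in BSA. The groups overlapped in HBSS replicate 3 and BSA replicate 4, and the difference was 0.50 against HBSS (adjusted p = 0.0285) and 0.50 against BSA (adjusted p = 0.0478). The order was the opposite at 3 h, with 163, 184, 154 and 145 in MACA below 204, 224 and 211 in HBSS and 210.3, 219.8 and 189 in BSA. That difference of -0.37 from HBSS did not pass (adjusted p = 0.151). The 12 h call against HBSS was lost without MACA replicate 2 or 3 or HBSS replicate 1, 2 or 4 of that time, and the call against BSA held in 3 of the 21 fits without 1 array.

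The remaining subunits, Mcm3 and Mcm4, did not pass against either control at 12 h. Mcm3 read 252, 342 and 316 in MACA, 200.1, 226, 266 and 191 in HBSS and 176, 159.7, 228 and 273 in BSA at 12 h, and its difference from HBSS was 0.43 ± 0.16 (adjusted p = 0.0718). At 3 h it read 155, 181, 195 and 178 in MACA, 123, 166 and 142 in HBSS and 146, 167 and 127 in BSA. Mcm4 read 423, 628 and 509 in MACA, 354, 444, 451 and 450.2 in HBSS and 373, 373, 454 and 497 in BSA at 12 h (0.27 ± 0.13, adjusted p = 0.168), and its 3 h values, 419, 400.2, 381 and 361 in MACA, 411, 429.8 and 419.5 in HBSS and 434, 508 and 375 in BSA, lay below every 12 h array in MACA and overlapped the 12 h range in HBSS and BSA. Averaged over the 6 subunits on the log2 scale, the MACA arrays at 12 h ran from 8.75 to 9.26, HBSS at 12 h from 8.09 to 8.54 and BSA at 12 h from 8.19 to 8.65. All 10 arrays of 3 h lay between 7.90 and 8.15. That average is a description with no test.

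**Figure D2:**
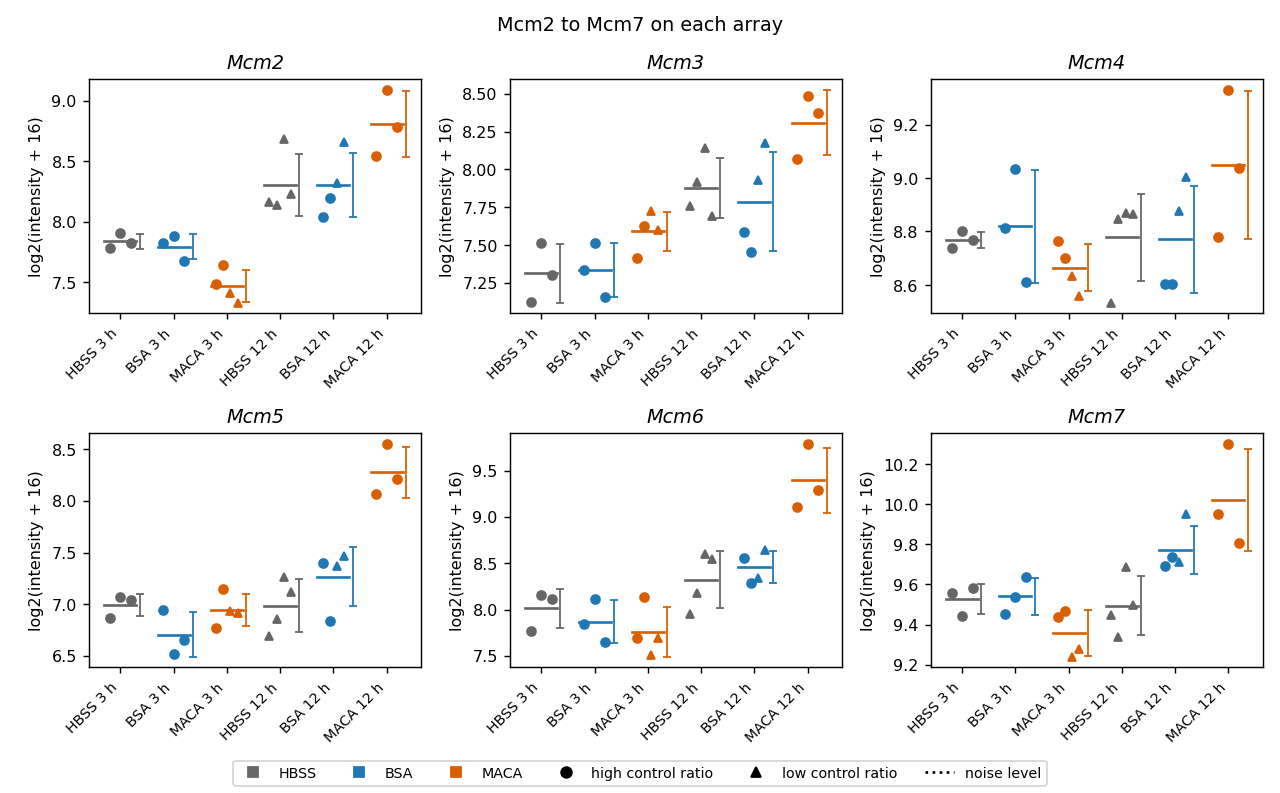
Log2(intensity + 16) of Mcm2 to Mcm7 on each of the 21 arrays by group, with the group mean as a line and 1 SD as a bar (n = 3 or 4). Circles are arrays of the high control ratio and triangles those of the low ratio. The MACA arrays at 12 h are the highest group in each panel after quantile normalization, without overlap with HBSS at 12 h in Mcm5, Mcm6 and Mcm7.

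Promoter sequences were available for 30 of the 38 members (RefSeq, GRCm38.p6), as 250 bases before and 50 after an annotated start. They were searched on both strands for the E2F letters TTTCCCGC, TTTCGCGC, TTTGCCGC and TTTGGCGC, the CHR letters TTTGAA and TTCGAA, and CCAAT. The E2F letters stood in 10 of 22 replication promoters (45.5%), 1 of 12 mitosis promoters (8.33%) and 2.26% of all 32851 promoters of that length. The CHR letters stood in 18.2% of the replication promoters, 91.7% of the mitosis promoters and 19.2% of all. CCAAT stood in 63.6%, 91.7% and 37.4%. Among the replication genes, the E2F letters stood in 45.5% of the promoters of replication genes past the threshold at 12 h (5 of 11 promoters) and in 45.5% of the others (5 of 11). That last division was made after the values were seen, and a match of letters is not a bound site.

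The 250 bases before the start are shown for the most changed replication genes, for Cenpa, the mitosis gene that fell, and for Mki67, a proliferation antigen. They are chr8:75109259-75109508 (plus strand) for Mcm5, chr1:128359706-128359955 (minus strand) for Mcm6, chr5:30666636-30666885 (plus strand) for Cenpa and chr7:135716380-135716629 (minus strand) for Mki67. Capitals mark E2F, CHR or CCAAT letters on either strand.
Mcm5: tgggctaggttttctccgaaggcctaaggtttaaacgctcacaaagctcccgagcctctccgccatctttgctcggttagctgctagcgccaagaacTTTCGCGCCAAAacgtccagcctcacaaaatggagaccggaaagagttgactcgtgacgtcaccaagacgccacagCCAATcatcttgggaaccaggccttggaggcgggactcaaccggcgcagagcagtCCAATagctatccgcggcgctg
Mcm6: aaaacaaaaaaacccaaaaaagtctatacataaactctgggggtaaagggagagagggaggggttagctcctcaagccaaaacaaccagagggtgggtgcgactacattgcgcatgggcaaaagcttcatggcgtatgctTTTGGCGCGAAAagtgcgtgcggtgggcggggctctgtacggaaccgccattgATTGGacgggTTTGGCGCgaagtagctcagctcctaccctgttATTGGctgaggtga
Cenpa: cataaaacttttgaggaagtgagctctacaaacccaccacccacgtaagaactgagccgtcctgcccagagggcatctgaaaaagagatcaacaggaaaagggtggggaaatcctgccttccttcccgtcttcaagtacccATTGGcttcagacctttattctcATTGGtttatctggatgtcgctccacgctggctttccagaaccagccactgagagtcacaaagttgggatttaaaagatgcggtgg
Mki67: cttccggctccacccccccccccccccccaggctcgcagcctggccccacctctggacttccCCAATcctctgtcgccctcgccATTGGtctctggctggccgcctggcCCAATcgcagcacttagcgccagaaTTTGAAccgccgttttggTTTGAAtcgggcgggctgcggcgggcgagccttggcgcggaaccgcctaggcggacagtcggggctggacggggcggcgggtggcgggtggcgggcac
In Mcm5 the E2F letters of both strands overlap in 1 run whose leftmost base is at -153 from the start, and 2 CCAAT boxes follow at -77 and -22. Mcm6 has a like overlapping run at -110 and a further match at -47. Mki67 holds CHR letters at -116 and -98 with 3 CCAAT boxes, 1 of them inverted, farther upstream. The CHR letters of Cenpa begin 16 bases past the start, outside the printed stretch, and its inverted CCAAT boxes lie at -109 and -86.

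Of the licensing and origin firing genes outside the ring, Cdt1 and Gins1 were higher against HBSS at 12 h. Cdt1, the loader of the helicase, read 344, 502 and 408 in MACA at 12 h, 294, 243, 334 and 232 in HBSS and 288, 296, 307 and 431 in BSA. MACA lay just above HBSS on every array (0.57 ± 0.15, adjusted p = 0.012) and overlapped BSA replicate 4 (0.33, adjusted p = 0.182). The call was lost without MACA replicate 2 of 12 h (adjusted p = 0.0866). At 3 h it read 186, 214, 217 and 205 in MACA, 206, 198 and 168 in HBSS and 217, 248 and 246 in BSA. Gins1, a subunit of the GINS complex, stood outside the 10 replication genes of smallest p but also passed against HBSS at 12 h (1.01 ± 0.35, adjusted p = 0.0488), with 64.9, 125 and 96.5 in MACA against 23.2, 26.3, 59.3 and 52.0 in HBSS, where 2 of 4 arrays were under the noise level. Its call held in 6 of the 21 fits without 1 array. Cdc6, the other loader, was under the noise level on 20 of 21 arrays.

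Prim1, the catalytic primase subunit, read 215.5, 278.6 and 231.5 in MACA at 12 h, 172.1, 199.3, 215.0 and 185.6 in HBSS and 184.6, 165.6, 215.3 and 211.2 in BSA. The lowest MACA array lay barely above the highest control array, and the difference was 0.30 ± 0.10 against HBSS (adjusted p = 0.0386) and 0.29 ± 0.10 against BSA (adjusted p = 0.0667). The call against HBSS was lost without MACA replicate 2 or 3 or HBSS replicate 1, 2 or 4 of 12 h. At 3 h the MACA arrays (130.0, 141, 135 and 122) were all below the HBSS arrays (168, 164 and 159) and overlapped BSA (156, 131 and 143), with a difference from HBSS of -0.28 that missed the threshold (adjusted p = 0.0854). In 4 of 19 replication genes, Prim1, Pola1, Mcm2 and Rrm2, every MACA array lay below every HBSS array at 3 h, as in 10.9% of all genes. Pola1, the catalytic polymerase subunit, was the 1 replication gene lower at 3 h (background 3.28% of all genes lower and 4.84% higher). It read 62.6, 54.0, 29.7 and 48.6 in MACA against 83.4, 70.4 and 95.8 in HBSS and 84.9, 71.5 and 71.7 in BSA. MACA lay below HBSS throughout (-0.64 ± 0.17, adjusted p = 0.0343), and the call was lost without MACA replicate 3 or 4 or HBSS replicate 1 or 3 of that time. At 12 h Pola1 read 74.2, 101 and 76.8 in MACA and 64.1, 71.1, 96.4 and 96.2 in HBSS, which overlapped.

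Of the clamp and lagging strand genes, Pcna and Lig1 passed at 12 h. Pcna, the sliding clamp, read 2792, 3552 and 3104 in MACA, 2500.1, 2369.8, 2584 and 2251 in HBSS and 2831, 2847, 2544 and 2440.3 in BSA. All 3 MACA arrays were above the HBSS arrays (0.37 ± 0.09, adjusted p = 0.0105), while 2 BSA arrays reached the lowest of them (0.24, adjusted p = 0.126). The call was lost without MACA replicate 2 of 12 h (adjusted p = 0.0783). At 3 h it read 2394, 2974, 2374 and 2379 in MACA, 2809, 2654 and 2539.6 in HBSS and 2858, 2584 and 2610.0 in BSA, and the groups overlapped.

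Lig1, the ligase that seals Okazaki fragments, read 261, 367 and 297 in MACA at 12 h, 197, 186, 256 and 229 in HBSS and 212, 237, 249 and 302 in BSA. The 3 MACA arrays were above all HBSS arrays by a small gap (0.48 ± 0.15, adjusted p = 0.0364), a call that was lost without the same 5 arrays as that of Prim1. At 3 h the values were 163, 201, 143 and 119 in MACA, 191, 202 and 215 in HBSS and 181, 207 and 173 in BSA. Fen1, the flap nuclease, passed in no comparison: it read 348, 489 and 415 in MACA, 364, 307, 414 and 297 in HBSS and 322, 348, 512 and 539 in BSA at 12 h, and 303, 341, 463 and 331 in MACA, 392, 306 and 367 in HBSS and 329.5, 388 and 335 in BSA at 3 h. Rfc3, a subunit of the clamp loader, had a difference from HBSS of -0.13 ± 0.23 at 12 h (adjusted p = 0.768).

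Of the listed members, the genes of nucleotide supply, Rrm1, Rrm2 and Tyms, did not pass in any comparison. The large ribonucleotide reductase subunit Rrm1 differed from HBSS at 12 h by -0.16 ± 0.16 (adjusted p = 0.555) and the small subunit Rrm2 by -0.18 ± 0.24 (adjusted p = 0.677). Thymidylate synthase, Tyms, was under the noise level on all 21 arrays and gives no fold. Uhrf1, which maintains DNA methylation behind the fork, was under the noise level on 13 arrays, all 10 of the 3 h arrays among them. At 12 h it read 58.9, 129.7 and 84.7 in MACA, 38.7, 43.7, 64.9 and 58.8 in HBSS and 43.0, 39.3, 24.8 and 59.8 in BSA. Its difference passed against BSA (0.87 ± 0.24, adjusted p = 0.0281) and not against HBSS (0.63 ± 0.24, adjusted p = 0.0703), with overlap in both, and 2 of 4 BSA arrays and 1 of 4 HBSS arrays were under the noise level. The call against BSA was lost without MACA replicate 2 or 3 or BSA replicate 2 or 3 of 12 h.

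**Figure D3:**
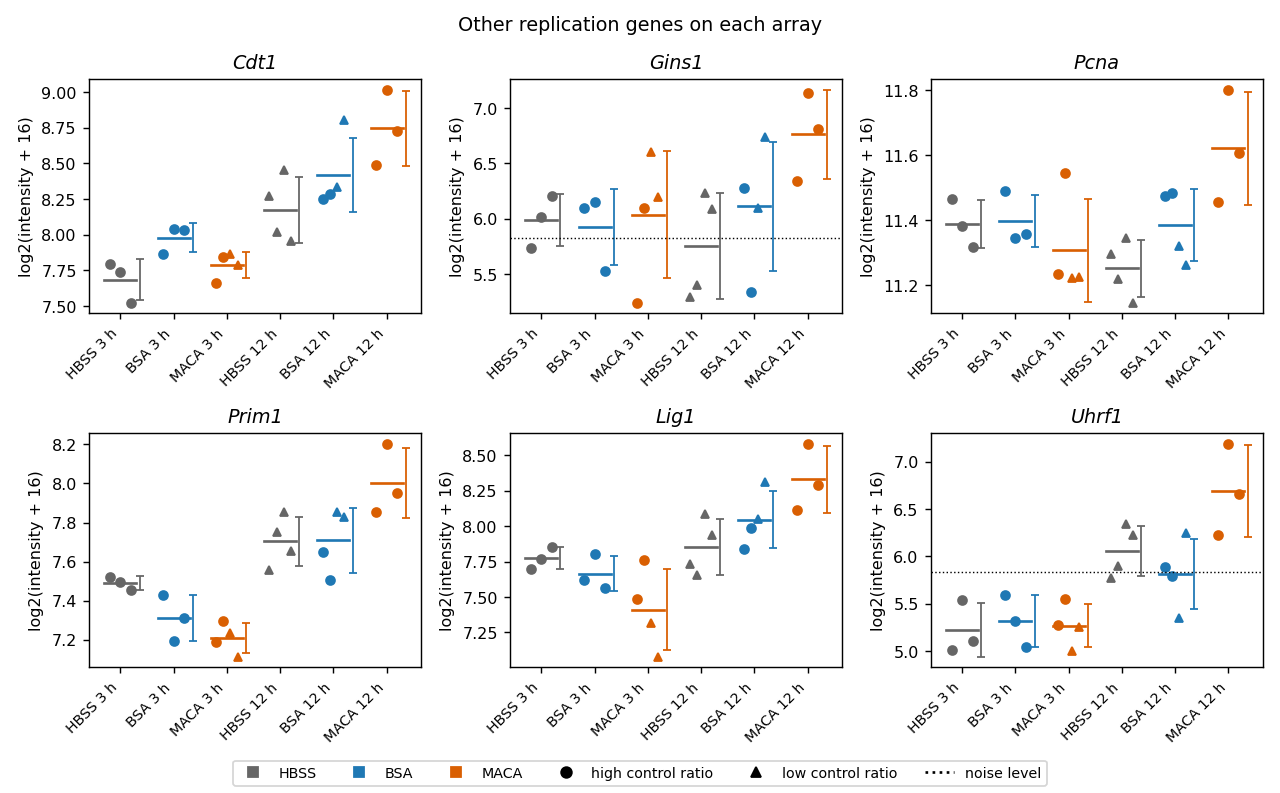
Log2(intensity + 16) of Cdt1, Gins1, Pcna, Prim1, Lig1 and Uhrf1 on each array by group, with the group mean as a line and 1 SD as a bar (n = 3 or 4), circles and triangles for the high and low control ratio and a dotted line at the noise level. MACA replicate 2 at 12 h is the highest array in all 6 panels. Values are after quantile normalization, without which Cdt1, Pcna, Prim1 and Lig1 lie below HBSS at 12 h.

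Against BSA, 4 of 19 replication genes were higher at 12 h, Mcm5, Mcm6, Mcm2 and Uhrf1, and none was lower, with 4.07% of all genes higher. The median log2 difference of the replication genes was 0.28, that of the mitosis genes 0.08 and that of all genes -0.03, and Cenpa was the 1 mitosis gene lower (5.58% of all genes were lower). The comparisons against HBSS and BSA share the same MACA arrays. At 3 h, 0 of 34 replication and mitosis genes passed against BSA by limma, with 5.95% of all genes past the threshold. At an unadjusted p under 0.05, 2 replication genes were lower and 2 mitosis genes were higher, where 1274 of all genes were higher and 1445 lower. BSA against HBSS moved no member past the threshold at 3 h (0.178% of all genes) or at 12 h (1.35%). At an unadjusted p under 0.05 that comparison gave 1 member higher and 2 lower at 3 h, and 1 higher and 1 lower at 12 h.

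**Figure D4:**
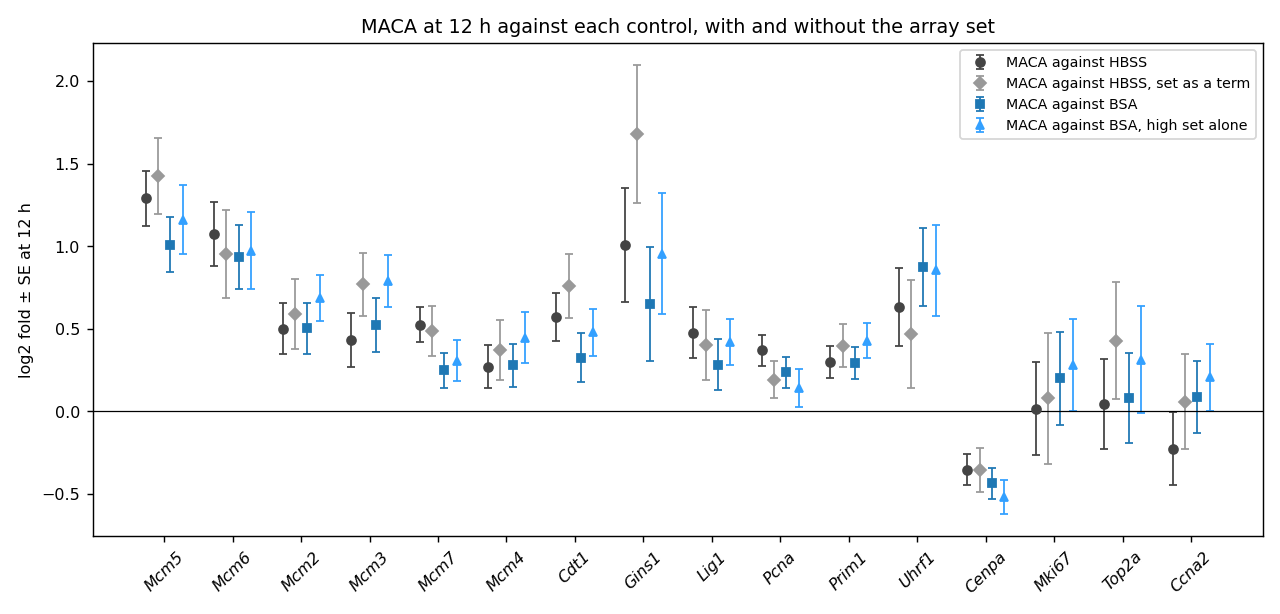
Log2 difference (± 1 SE) of MACA at 12 h from HBSS and from BSA for 12 replication and 4 mitosis genes, each also with the technical set in the model (HBSS) or within the high set alone (BSA, 3 MACA against 2 BSA arrays). Mcm5 and Mcm6 lie near or above 1 in all 4 forms after quantile normalization, and Cenpa lies below 0 in all 4.

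Within the MACA lungs the same genes were followed over time. From 3 h to 12 h, 11 of 19 replication genes rose and none fell, while 1 of 15 mitosis genes fell (5.59% of all genes rose and 5.15% fell). All 19 replication differences were above 0, with a median of 0.66. In 11 replication genes, the called ones without Pcna and with Mcm4, every 12 h array lay above every 3 h array (11.3% of all genes). Mcm6 rose by 1.64 ± 0.19 (3.11-fold, adjusted p = 7.04e-05), Mcm2 by 1.34 ± 0.15 (2.53-fold, adjusted p = 5.8e-05) and Mcm5 by 1.33 ± 0.17 (2.52-fold, adjusted p = 0.000113). Uhrf1, under the noise level on every 3 h array, was at least 1.81-fold higher at 12 h, taking the noise level as its 3 h value. Cdt1 (0.95), Lig1 (0.92), Prim1 (0.79), Mcm3 (0.72), Mcm7 (0.66), Pola1 (0.65) and Pcna (0.31) made up the rest, with adjusted p-values up to 0.0394. The calls of Mcm2, Mcm5, Mcm6 and Uhrf1 held in all 21 fits without 1 array and in the 11 other settings tried, and that of Pcna in 16 of the 21. Mcm3 was lost without MACA replicate 2 of 12 h, and Pola1 without MACA replicate 3 or 4 of 3 h or replicate 2 or 3 of 12 h.

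The control lungs were compared over time in the same way. In BSA lungs Prim1 alone rose from 3 h to 12 h (0.40 ± 0.10, adjusted p = 0.0285, 5.3% of all genes past the threshold). The Prim1 call was lost without BSA replicate 2 or 3 of 3 h or replicate 3 or 4 of 12 h. In HBSS lungs 2 members rose, Mcm3 (0.56 ± 0.16, adjusted p = 0.0439) and Uhrf1 (at least 1.17-fold, adjusted p = 0.0394), with 7.88% of all genes past it, and both calls were lost without HBSS replicate 1 or 3 of 3 h or replicate 2 or 3 of 12 h. Mcm2 lay higher at 12 h than at 3 h without overlap in all 3 treatments, by 0.47 in HBSS (adjusted p = 0.0715) and 0.51 in BSA (adjusted p = 0.0615). The count in BSA came to 3 and 4 without BSA replicate 1 or 2 of 12 h and to 2 without HBSS replicate 3, and the count in HBSS to 4 without BSA replicate 4. The HBSS arrays of 3 h were all in the high technical set and those of 12 h all in the low set, so time and set cannot be told apart there.

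Whether MACA and HBSS lungs differed by another amount at 12 h than at 3 h was tested directly, which also tests whether the 2 treatments changed alike over time. It passed for 6 members, all replication genes, and in each the difference was more positive at 12 h (3.91% of all genes passed). They were Mcm5 (1.34 ± 0.24, adjusted p = 0.00973), Mcm6 (1.33 ± 0.27, adjusted p = 0.017), Mcm2 (0.87), Lig1 (0.84), Mcm7 (0.70) and Prim1 (0.58). Without scaling, where the median change of all genes was -0.66, those of Mcm7 and Prim1 were below 0 and above that median, and the calls were 5 mitosis genes, all lower, and none of the 6. In that fit 22 of all genes were higher and 2445 lower. With the technical set in the model, or without MACA replicate 2 of 12 h, Mcm5 was the 1 member that passed, and its call held in all 21 fits without 1 array. The count was 2 without HBSS replicate 1 or 3 of 3 h, and 3 without MACA replicate 4 or HBSS replicate 2 of 3 h or HBSS replicate 1 of 12 h. The same change against BSA passed for 0 of 38 members by limma, where 0.718% of all genes passed. At an unadjusted p under 0.05, 14 members were higher and 2 lower, a looser threshold to which the share of 0.718% does not apply.

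Of the 4 G1 cyclins, 2 were higher against HBSS at 12 h, as were 10.2% of all genes, and 1 of the 2 was above the noise level. Ccnd1, the cyclin D1 that opens G1 progression, read 2097, 2519.8 and 2154 in MACA at 12 h, 1658, 1717, 1711 and 2054 in HBSS and 1618, 1690.4, 1511 and 1712 in BSA. MACA lay above both without overlap, by 0.34 ± 0.11 against HBSS (adjusted p = 0.0446) and 0.46 ± 0.11 against BSA (adjusted p = 0.0171), although the value against HBSS was -0.33 without scaling. From 3 h to 12 h it rose in MACA lungs by 0.43 ± 0.11 (adjusted p = 0.0211). The call against HBSS held in 11 of the 21 fits without 1 array, and the one against BSA was lost without MACA replicate 2. At 3 h Ccnd1 read 1740.5, 1862, 1591 and 1495 in MACA, 1598, 1242 and 1412 in HBSS and 1686, 2231 and 1763 in BSA. Ccnd2, cyclin D2, read 1974, 1745 and 2255 in MACA, 2160.2, 2279, 2216 and 1968 in HBSS and 2151, 2358, 1543 and 2564 in BSA at 12 h, and 2517, 2667, 2282 and 1974 in MACA, 2299, 2387 and 2184 in HBSS and 2138, 1968 and 1993 in BSA at 3 h, with no call in any comparison.

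The E cyclins, which drive entry into S phase, were dim. Ccne1 was under the noise level on all 21 arrays, with 15.7, 24.2 and 31.3 in MACA, 3.61, 9.73, 12.1 and 4.47 in HBSS and 12.7, 15.9, 7.73 and 0 in BSA at 12 h and 10.1, 21.8, 4.74 and 15.2 in MACA, 14.2, 15.5 and 18.5 in HBSS and 9.15, 27.6 and 13.6 in BSA at 3 h. Its adjusted p of 0.0397 against HBSS at 12 h thus compares values below the noise level, and no fold is given. It was lost without the same 5 arrays as that of Mcm2. Ccne2 was under the noise level on 19 arrays and read 14.0, 29.7 and 22.8 in MACA, 20.3, 27.2, 47.0 and 35.0 in HBSS and 16.3, 23.8, 21 and 34.1 in BSA at 12 h and 9.35, 26.3, 15.7 and 8.54 in MACA, 38.3, 22.5 and 30.5 in HBSS and 47.0, 28.9 and 28.1 in BSA at 3 h, with no call.

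Cenpa, the histone variant that marks the centromere, was the 1 of 15 mitosis genes called against each control at 12 h. That is no more than the background, as 10.1% of all genes were lower against HBSS and 5.58% against BSA. Cenpa read 67.5, 71.9 and 61.0 in MACA at 12 h, 97.2, 81.7, 82.5 and 98.3 in HBSS and 92.9, 113, 81.7 and 98.0 in BSA. The MACA arrays were the lowest of the time point in both comparisons, 0.783-fold the HBSS mean (-0.35 ± 0.10, adjusted p = 0.0155) and 0.74-fold the BSA mean (-0.44 ± 0.10, adjusted p = 0.00937). At 3 h the groups overlapped, with 95.5, 94.4, 112 and 104 in MACA, 94.4, 112 and 96.9 in HBSS and 107, 89.9 and 104 in BSA, and the MACA value fell by 0.50 on the log2 scale from 3 h to 12 h (adjusted p = 0.00288). The call against HBSS was lost with the technical set in the model (-0.36, adjusted p = 0.0802) and without MACA replicate 3 of 12 h (adjusted p = 0.0692).

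Mki67, the antigen Ki-67 of cycling cells, did not pass in any comparison. At 3 h its 4 MACA arrays read 174, 210.3, 209 and 167, above 101, 115 and 122 in HBSS and 155, 116 and 102 in BSA, and the difference from HBSS was 0.67 ± 0.28 (adjusted p = 0.158). It was 1 of 2 mitosis genes whose MACA and HBSS arrays did not overlap at 3 h, where 10.1% of all genes did the same. At 12 h it read 90.6, 163 and 144 in MACA, 81.9, 99.4, 159 and 197 in HBSS and 74.6, 141, 77.8 and 173 in BSA, and the groups spread over the same range.

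Cdc20, the activator of the anaphase-promoting complex, read 129.6, 238 and 165 in MACA at 12 h, 155, 153, 230.3 and 231 in HBSS and 125, 143, 148 and 229 in BSA, and 113, 144, 151 and 183 in MACA, 126, 150.4 and 203 in HBSS and 167, 189 and 179 in BSA at 3 h. The groups overlapped at both times. Bub1b, a spindle checkpoint kinase, was under the noise level on all 21 arrays, and its call against HBSS at 3 h (adjusted p = 0.0333) compared 16.2, 37.9, 12.7 and 33.5 in MACA with 0, 1.41 and 0 in HBSS. The BSA arrays of that time read 12.8, 6.95 and 8.29, and at 12 h the groups read 0, 31.0 and 18.3 in MACA, 0, 5.42, 16.4 and 0 in HBSS and 1.65, 20.5, 10.8 and 19.1 in BSA, so that no fold is given. The call was lost without MACA replicate 2 or 4 or any 1 of the HBSS arrays of 3 h.

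The other mitosis genes did not pass in any comparison. Against HBSS at 12 h, Top2a, the topoisomerase of chromosome condensation, differed by 0.05 ± 0.27, the mitotic kinase Cdk1 by 0.46 ± 0.36, and its partner cyclins Ccna2 by -0.23 ± 0.22 and Ccnb2 by 0.16 ± 0.25. Plk1, the polo kinase, was under the noise level on all 4 HBSS and 2 of 3 MACA arrays of 12 h, and no difference is given. Aurka and Aurkb, the aurora kinases, Bub1, Birc5 (survivin), Tpx2 and the spindle motor Kif11 completed the group, with adjusted p-values of 0.094 or more. Aurkb and Kif11 were under the noise level on all 21 arrays, and Bub1 on 18, Birc5 on 16, Tpx2 on 15, Plk1 on 14 and Aurka on 12. In all, 5 of 15 mitosis genes and 14 of 19 replication genes were above it on every array, so the precision was not the same in the 2 groups. The standard errors against HBSS at 12 h were 0.17 for Mcm5 and 0.27 for Top2a, both above the noise level on every array.

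**Figure D5:**
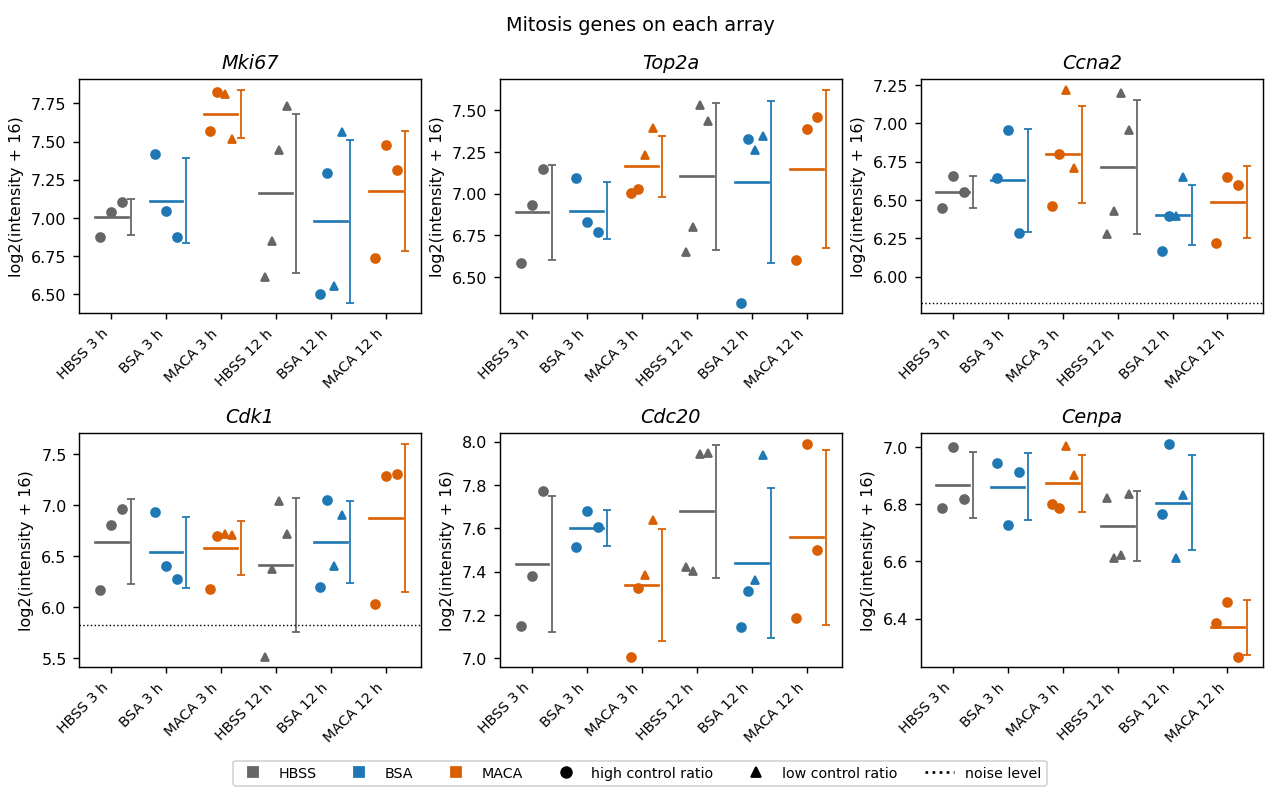
Log2(intensity + 16) of Mki67, Top2a, Ccna2, Cdk1, Cdc20 and Cenpa on each array by group, with the group mean as a line and 1 SD as a bar (n = 3 or 4), circles and triangles for the high and low control ratio and a dotted line at the noise level where it falls in the panel. The groups overlap at 12 h in all panels but Cenpa, where the 3 MACA arrays lie below the others. Top2a, Ccna2 and Cdk1 were chosen for display after their values were seen.

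One array was high across the replication genes. MACA replicate 2 at 12 h was the highest of all 21 arrays in 14 of 19 replication genes and in 1 of 15 mitosis genes, a count made after the values were seen. Without it, 3 replication genes passed against HBSS at 12 h (Mcm5, Mcm6 and Mcm7) and 1 against BSA (Mcm5). Leaving out MACA replicate 3 or HBSS replicate 1, 2 or 4 of that time gave 5 against HBSS, and leaving out MACA replicate 3 or BSA replicate 2 or 3 gave 2 against BSA. The mitosis count at 12 h came to 2 against HBSS without HBSS replicate 2 of 12 h or BSA replicate 3 of 3 h, and to 2 against BSA without BSA replicate 2. The Mcm5 difference from HBSS was at least 1.15 in the 21 fits without 1 array.

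The technical set moved with the comparison at 12 h. With the set as a term, 8 replication genes were higher against HBSS, and Mcm5 (1.42, adjusted p = 0.00157), Mcm6 (0.95, adjusted p = 0.0252) and Mcm7 (0.49, adjusted p = 0.0391) were among them. Mcm3 (0.77, adjusted p = 0.0137) and Fen1 (0.71, adjusted p = 0.0236) also passed there, while Pcna (0.19, adjusted p = 0.267), Lig1 (0.40, adjusted p = 0.223) and Mcm2 (0.59, adjusted p = 0.0701) did not. That term assumes 1 set effect shared by all groups, and only MACA at 3 h and BSA at 12 h held arrays of both sets. High minus low differed in sign between them in Mcm2 (0.19 and -0.37), Mcm5 (0.03 and -0.30), Mcm6 (0.32 and -0.08), Mcm7 (0.20 and -0.12) and Lig1 (0.43 and -0.27). The sign was the same in Mcm3, Fen1 and Pcna, so these adjusted values cannot settle the part of the set. Within the high set, MACA exceeded BSA at 12 h in Mcm5 (1.16, adjusted p = 0.024), Mcm3 (0.79, adjusted p = 0.0333) and Mcm2 (0.69, adjusted p = 0.0336), with 3 arrays against 2, and Mcm6 missed the threshold (0.97, adjusted p = 0.0575). Within the high set 9 replication genes rose in MACA lungs from 3 h to 12 h, again with 3 arrays against 2, where 475 of all genes rose and 374 fell. Mcm6 rose by 1.48 (adjusted p = 0.00901).

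Other probe sets of the same genes were compared with the brightest. For MACA against HBSS at 12 h, the called members had 10 further probe sets, all with the sign of the brightest one, and 6 of them passed. The second Mcm2 probe set showed a difference of 1.07 ± 0.14 (adjusted p = 0.000181), larger than the 0.50 of the brighter one. For MACA at 12 h against 3 h, 13 of 15 further probe sets had the same sign. The exceptions were a Cdt1 probe set under the noise level on all 21 arrays and an Mcm3 probe set under it on 20 arrays. Probe sets ending in _s_at or _x_at, as used for Mcm2, Mcm3, Mcm7, Fen1, Rrm2, Cdc20 and Aurkb, hold probes that can match more than 1 transcript.

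Of 35 other replication genes measured, 6 were higher and 3 lower against HBSS at 12 h (10.2% and 10.1% of all genes), with a median of 0.21. Tk1, the S phase thymidine kinase, was higher by 1.24 ± 0.31 (adjusted p = 0.0104), with HBSS arrays from 21.7 to 52.0 around the noise level and MACA arrays from 80.3 to 158. Timeless, of the fork protection complex, was higher by 0.71 ± 0.11 (adjusted p = 0.000546) and the histone chaperone Asf1b by 0.58 ± 0.15 (adjusted p = 0.0125), while Orc5, Dut and Rpa3 were lower, the last with a difference of -0.27. Without scaling, 3 of the 6 higher genes, Dnmt1, Pole2 and Tipin, had differences below 0. Pole3, the brightest without a call, differed by 0.26 ± 0.13. From 3 h to 12 h in MACA lungs 11 of the 35 rose and none fell (5.59% of all genes rose and 5.15% fell). At 3 h 4 were lower than in HBSS and none higher, where 3.28% of all genes were lower and 4.84% higher. They were the clamp loader subunit Rfc2 (-0.57 ± 0.14, adjusted p = 0.0203), the single-strand binding subunits Rpa1 (-0.39 ± 0.09) and Rpa3 (-0.38 ± 0.09), and Gins4 (-0.31 ± 0.09). The BSA arrays at 3 h also lay below HBSS in Rfc2 (349 to 363 against 446 to 533) and Rpa1 (1484 to 1640 against 1732 to 1786). In Rpa3 they overlapped HBSS (291 to 366 against 294 to 311).

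Of 45 other mitosis genes measured, 2 were higher (Kif22 and Ube2s) and 4 lower (Anln, Ect2, Cdc25b and Sgo1) against HBSS at 12 h, with a median of -0.14, where 10.2% of all genes were higher and 10.1% lower. Of the 45, 16 were under the noise level on all arrays. Sgo1 was below it in both groups, and Ube2s turned negative without scaling. The chromokinesin Kif22 differed by 0.92 ± 0.25 (adjusted p = 0.0149), and the cytokinesis genes Anln and Ect2 by -0.69 ± 0.15 (adjusted p = 0.00439) and -0.58 ± 0.16 (adjusted p = 0.0194). Pttg1, securin, the brightest without a call, differed by 0.13 ± 0.14. At 3 h Kif23, a motor of the central spindle, was at least 1.30-fold higher (adjusted p = 0.0394). At 12 h Ect2 in BSA (27.0 to 46.7) was as low as in MACA (30.0 to 51.1), with HBSS at 46.2 to 84.2. Kif22 in BSA (555 to 958) overlapped MACA (659 to 1201) and lay above HBSS (409 to 494). Anln in BSA (66.2 to 119) overlapped both MACA (54.0 to 66.9) and HBSS (100 to 125).

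Of 26 cell cycle control genes, 2 were higher and 2 lower against HBSS at 12 h, no larger shares than the 10.2% and 10.1% of all genes. The cyclin Ccnd3 was higher by 0.76 ± 0.09 (adjusted p = 7.74e-05) and its kinase Cdk4 by 0.49 ± 0.09 (adjusted p = 0.00156), and the inhibitor Cdkn1c and the pocket protein gene Rbl2 were lower (-0.81 ± 0.23 and -0.47 ± 0.14, adjusted p = 0.0202 and 0.0262). At 3 h the growth regulator Myc was higher by 1.99 ± 0.41 (adjusted p = 0.00643) and Wee1, the kinase that holds Cdk1 inactive, was lower, with a difference of -1.03 ± 0.22 (adjusted p = 0.00916). The inhibitor Cdkn1a, the brightest without a call, differed by 0.68 ± 0.21 at 3 h (adjusted p = 0.0579). Of 20 p53 targets and growth arrest genes, 4 were higher than in HBSS at 3 h (4.84% of all genes). They were Gadd45a (1.29), Gadd45b (0.76), Gadd45g (1.31) and Btg1 (0.67). At 12 h 2 were higher and 5 lower, against 10.2% and 10.1% of all genes, and the lower ones included Tob1 (-0.99, adjusted p = 0.00124) and Ccng2 (-0.96, adjusted p = 0.000468). Without scaling, Cdk4 and Gadd45b turned negative at 12 h. The BSA arrays at 3 h overlapped MACA and lay above HBSS in Gadd45a (370 to 414, HBSS 138 to 153) and Myc (287 to 301, HBSS 71.7 to 102). They lay below MACA in Gadd45b (938 to 1027 against 1390 to 1901) and Gadd45g (344 to 493 against 713 to 1088). Wee1 in BSA at 3 h (326 to 542) overlapped both other groups. At 12 h Tob1 in BSA (536 to 1091) overlapped MACA (552 to 810) and lay below HBSS (1234 to 1338). Ccng2 in BSA (711 to 1055) lay between them.

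Some leukocyte markers were higher in MACA lungs at 12 h, beside the replication genes. Against HBSS, where 10.2% of all genes were higher, 7 of 10 neutrophil markers, 6 of 13 macrophage and monocyte markers, 5 of 9 B cell markers, 3 of 13 T cell and NK cell markers and 1 of 10 granulocyte precursor markers were higher, and Fabp5 of the macrophage list was lower. Of 15 lung epithelial and endothelial markers, 3 were higher and 1 lower, and the 3 turned negative without scaling, as did Cd247 of the T cell and Cd22 of the B cell list. The summed macrophage and monocyte intensity was 10350.4 to 11895 in MACA, 9432 to 10081 in HBSS and 8528 to 10312 in BSA at 12 h, and the summed replication intensity was 7426 to 10194.5, 5985 to 7219 and 6594 to 7573. The scavenger receptor Marco was at least 2.33-fold higher and Msr1 differed by 2.22 ± 0.33 (adjusted p = 0.000342). The sums at 12 h were 5487 to 10135 in MACA, 1338 to 3691 in HBSS and 3092 to 7933 in BSA for neutrophils and 2380.0 to 3996, 1249 to 2273 and 2327 to 4518 in the same order for B cells. For T cells and NK cells they were 1882 to 3071, 991 to 2079.6 and 2032 to 2644. The MACA ranges were thus above HBSS in macrophage and monocyte, neutrophil and B cell markers, and overlapped BSA in neutrophil, B cell and T cell and NK cell markers. At 3 h the neutrophil sum was 9064 to 14235 in MACA and 1409 to 4841 in HBSS. Of the thymocyte markers 0 of 7 passed by limma, with Rag2, Dntt and Ptcra under the noise level on all arrays, and of the erythroid markers 0 of 8 passed. The part of these cells in the replication values was not tested.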

How the data were processed

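Whole left lung RNA was hybridized as biotin-labelled cRNA to 1 array per mouse. The authors deposited 1 table of intensities per probe set for the 21 arrays, with values below 0 on 9.38% to 11.2% of probe sets per array. No label or header names the summary or background method behind them. After leaving out 64 control probe sets of 22690, the deposited intensity values were quantile normalized, values below 0 were set to 0, and log2(intensity + 16) was taken. Probe sets were named through the platform annotation (20380 with 1 symbol, 691 with several, 1555 with none), with symbols updated where the RefSeq table held the gene (20351 of them), and the brightest probe set by mean stood for each of 12393 genes.

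Differences were tested with limma 3.58.1 in R 4.3.3, as 6 group means over all 21 arrays with 15 residual degrees of freedom and 11 comparisons, at a Benjamini-Hochberg adjusted p under 0.05 over all genes. The same code was tested on simulated data. Per-array values are normalized intensities, and folds are on the log2(intensity + 16) scale, which understates changes of dim genes. The number of arrays limits the precision. The p-values rest on a spread pooled over the 6 groups and moderated across genes by limma, not on that of the groups compared alone.

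The members, the lists of other genes and the markers were chosen with earlier results of these data known. Array values are given, within each group, for members past the threshold in any of the 11 comparisons (at most the 10 of smallest p) and for the 2 brightest that passed in none. Of each other list, up to 3 genes of the largest called change against HBSS at 3 h and at 12 h and 1 brightest gene without a call are given. Gins1, Pola1, Ccna2, Cdk1, Top2a and names that complete a small count were added after their values were seen. No 2 arrays held identical values (pairwise correlation 0.964 to 0.992). Same-numbered arrays deviated together, with every correlation over 0.1, in BSA and HBSS at 12 h alone (0.136 to 0.339), where the count of calls was 0 with and without the block. Arrays of different numbers were not compared in this way, so these correlations do not show a pairing. Alternatives were the scaling, the pseudocount, dim genes left out, the mean of all probe sets, the groups compared alone, an intensity trend, the technical set as a term or alone, the replicate number as a block and each array left out.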

Additional observations from a re-analysis of the deposited data

Results flagged for a closer look

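In 9 of 114 members and groups of 4 arrays, 1 array lay far from the other 3 relative to the group's range on the log2(intensity + 16) scale, where chance gives about 1 in 20. HBSS replicate 1 at 12 h was low in Mcm4 (8.53, others 8.85 to 8.87), HBSS replicate 3 high in Rfc3 (7.17, others 6.84 to 6.87) and HBSS replicate 4 high in Ccnd1 (11.02, others 10.71 to 10.76). Of the BSA arrays at 12 h, replicate 4 was high in Mcm7 (9.95, others 9.69 to 9.74) and Cdt1 (8.80, others 8.25 to 8.34), replicate 2 low in Mcm5 (6.84, others 7.37 to 7.46) and replicate 1 low in Top2a (6.35, others 7.26 to 7.35). Of the MACA arrays at 3 h, replicate 2 was high in Pcna (11.55, others 11.22 to 11.23) and replicate 1 low in Cdk1 (6.18, others 6.70 to 6.72).

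The difference between MACA and HBSS itself differed between 3 h and 12 h, by the direct test of limma, in 6 replication genes. The change (12 h minus 3 h, log2) was 1.34 for Mcm5, 1.33 for Mcm6, 0.87 for Mcm2, 0.84 for Lig1, 0.70 for Mcm7 and 0.58 for Prim1.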

How the results depend on the processing

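Replication genes against HBSS at 12 h (9) came to 1 without scaling, which was lower, and to 4 with the groups compared alone, and mitosis genes (1) to 6, all lower, without scaling and to 0 with the technical set as a term. Against BSA at 12 h, replication genes (4) came to 0 without scaling or with the groups compared alone and to 7 with the mean of all probe sets, and mitosis genes (1) to 0, 0 and 2, and to 2 with dim genes left out. Against HBSS at 3 h, the 1 replication gene and the 1 mitosis gene came to 0 without scaling, with the set as a term and in the high set alone. The replication gene was also lost (0) with the groups compared alone, where mitosis came to 2, and the mitosis gene (0) with dim genes left out. BSA against HBSS at 12 h (0) came to 5, all lower, without scaling, where 6 of all genes were higher and 2053 lower. It came to 1 with the set as a term (Fen1, 0.50, adjusted p = 0.0397), where 771 of all genes were higher and 722 lower. From 3 h to 12 h, MACA (13) came to 4 without scaling. BSA (1) came to 3 with dim genes left out and to 0 without scaling, with the mean of probe sets, the groups compared alone, the set as a term or the high set alone. HBSS (2) came to 28 without scaling, to 0 with the set as a term, and to 1 with median scaling, pseudocount 64, the mean of probe sets or the groups compared alone. The change of MACA against HBSS (6, all replication genes) came to 1 with the set as a term and to 3 with the replicate block. Without scaling it came to 5 others, all mitosis genes and lower, where 22 of all genes were higher and 2445 lower. The change against BSA (0) came to 1 with the mean of probe sets. The labels do not say whether the replicate numbers pair samples. The replicate block moved no other count by over 1.5 times.

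Without scaling, called differences turned negative for Mcm2 (-0.16), Mcm7 (-0.14), Pcna (-0.31), Cdt1 (-0.082), Lig1 (-0.17), Prim1 (-0.34) and Ccnd1 (-0.33) against HBSS at 12 h, and for the change of Mcm7 (-0.071) and Prim1 (-0.19). That fit's median of all genes was -0.57 at 12 h, with 162 genes higher and 5412 lower, against 1258 and 1251 after scaling. Without 1 array in turn, replication and mitosis calls ran from 0 to 1 and 0 to 1 against HBSS at 3 h, 3 to 11 and 0 to 2 at 12 h, 0 to 1 and 0 to 1 against BSA at 3 h, and 1 to 6 and 1 to 2 at 12 h. Calls over all members ran from 0 to 0 and 0 to 1 for BSA against HBSS at 3 h and 12 h, 9 to 14 in MACA over time, 0 to 4 in BSA, 0 to 4 in HBSS, 1 to 7 for the change against HBSS and 0 to 1 against BSA. The cause of these moves was not tested. Groups held 3 or 4 arrays, and 5 of 38 members were under the noise level on every array, which limits the precision of dim genes.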
